A study of Homo sapiens with 3 samples.

Results

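The fully resistant and the intermediate resistant cells of a drug resistance series were set against each other, 12619 of the 18034 cells kept from all libraries. A cell was a droplet barcode with at least 5000 UMIs (unique molecular identifiers, each marking 1 captured RNA molecule), at least 500 genes and at most 20% of its UMIs from mitochondrially encoded genes. The fully resistant library, from cells growing in 1000 nM of the ALK kinase inhibitor TAE684, gave 6331 cells. The intermediate resistant library, from cells growing in 500 nM TAE684, gave 6288. The remaining 5415 came from the sensitive library, whose cells received the solvent DMSO and serve here as a further level beside the comparison. All were Kelly cells, a human neuroblastoma line that carries extra copies of the oncogene MYCN and a mutated, active ALK receptor, grown in RPMI-1640 with fetal bovine serum and antibiotics and captured as single cells with 10x Genomics 3' chemistry. Each state was 1 library, so there is no replicate, no test between states and no p-value. A difference in resistance, in the dose present at harvest and between cultures cannot be told apart.

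Neuroblastoma arises from the sympathetic branch of the neural crest, and its cells keep much of the chemistry of that lineage. A circuit of transcription factors that includes HAND2 and GATA3 holds the adrenergic identity. Under it the cells make noradrenaline from tyrosine, load it with granins and neuropeptides into dense core vesicles, and release it under control of G protein signalling and cyclic AMP. ALK signals through the RAS and ERK cascade, and inhibitors such as TAE684 block its kinase.

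The 2 resistant libraries were alike in depth. They held 106163582 and 102449567 UMIs in cells (fully, then intermediate resistant), with medians of 16014 and 15660.5 UMIs and 3633 and 3413 genes per cell. Mitochondrially encoded genes took 6.57% and 5.13% of the UMIs and ribosomal protein genes 33.5% and 39.5%. For shares of cells, each cell was thinned to 9500 UMIs, which left 5843 and 5836 cells and dropped 488 and 452. The libraries had 56 cell barcodes in common, under 1% of either. Levels are UMIs summed over cells and scaled to the library's total in cells (given as CPM), and 95% intervals are exact and cover counting error only. All 10 markers of the Kelly line were above 5 CPM in at least 1 of the resistant libraries, although ALK itself was at 1.25 CPM in the fully and 5.11 in the intermediate resistant library.

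Of 5165 genes with at least 20 CPM in either resistant library, 234 (4.53%) had 2-fold or more RNA in the fully resistant cells and 146 (2.83%) were lower by the same factor. At 1.5-fold the counts were 643 (12.4%) and 328 (6.35%), and ratios beyond 10-fold were found for 39 higher and 20 lower genes. The shares at 1.5-fold are the background for the list counts below. The share of cells with a UMI was at least 20 percentage points higher for 117 genes (2.27%) and lower for 79 (1.53%). Of the 234 higher genes 97 also passed that rule, as did 67 of the 146 lower ones, and none had a share that went against its ratio. The median log2 ratio of all genes was 0.17, so list medians below are given as the distance from it. The split of calls depends on the scaling. Higher genes made up 61.6% of the 2-fold calls as counted, 47.7% under TMM (edgeR's trimmed mean of log ratios), 50.8% under median-of-ratios scaling and 49.4% with totals that leave out mitochondrially encoded and ribosomal protein genes.

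**Figure D1:**
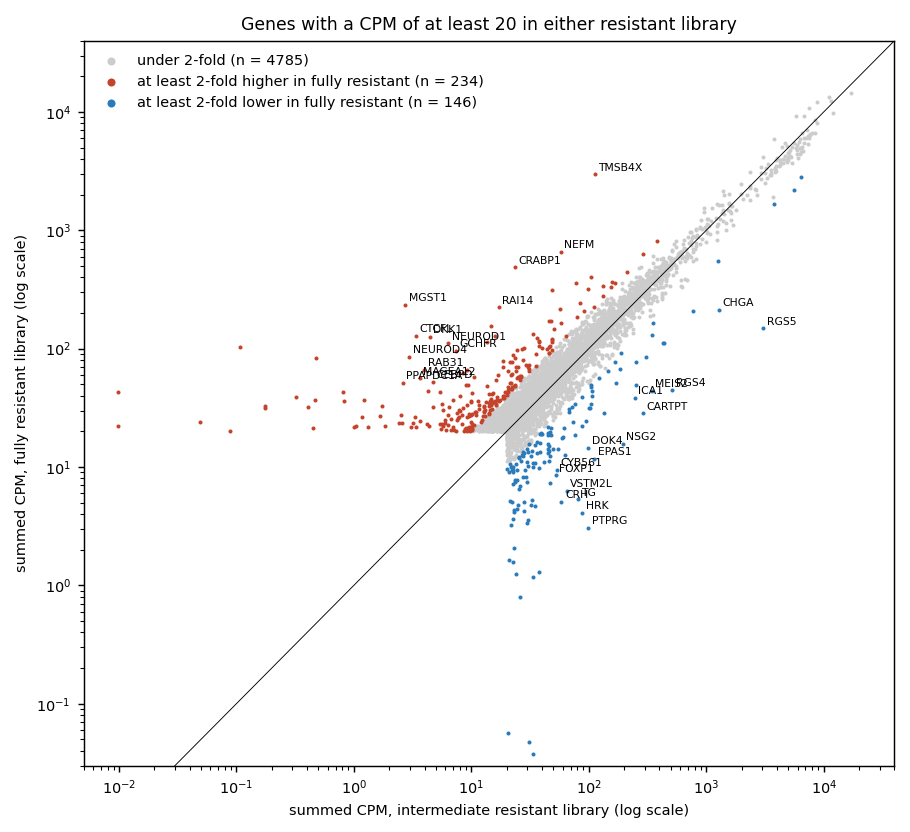
Summed CPM of each of the 5165 genes in the intermediate resistant (x axis) and the fully resistant library (y axis), both on log scales, with 14 of the highest and the 16 lowest ratios among genes of at least 50 CPM named. Most genes lie along the line of equal level, 234 stand at least 2-fold above it and 146 at least 2-fold below.

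Among the genes with the highest ratios above 50 CPM was MGST1, a membrane-bound glutathione transferase that also removes lipid peroxides. It had 236 CPM in fully resistant cells, 2.74 in the intermediate resistant and 22.0 in the sensitive ones, so the intermediate resistant library was the low one. The resistant libraries differed 85.9-fold (interval 76.4 to 96.9). A MGST1 UMI was seen in 83.6% of fully resistant and 2.40% of intermediate resistant cells, and free RNA in the droplets could supply at most 1.76 of the 236 CPM. PPAPDC1A, a lipid phosphatase gene, had 51.7, 2.60 and 4.53 CPM (fully, intermediate, sensitive), 19.9-fold apart, and RAB31, a small GTPase of vesicle traffic, 66.3, 3.96 and 8.22 CPM, 16.7-fold apart. Both were low in the sensitive as well as the intermediate resistant cells. CEBPD, a transcription factor of stress and differentiation, had 52.5, 4.71 and 1.20 CPM, 11.1-fold apart.

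Below 50 CPM, 3 further genes were close to absent in 1 of the libraries and were picked out after their values were seen. MYL1, a myosin light chain gene of striated muscle, had 4583 UMIs in the fully resistant cells and 1 UMI in the intermediate resistant ones, a ratio of 4423 with a counting interval of 793 to 174724. SH3BGRL, an X-linked gene for a small thioredoxin-like protein, ran the other way at 4 against 3451 UMIs, 894-fold lower (349 to 3283), and its 37.1 CPM in the sensitive library was near the 33.7 of the intermediate resistant one. DHRS2, a short-chain reductase gene, had 6 against 2093 UMIs.

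The list called proneural here holds both proneural transcription factors, which push neural progenitors toward neurons, and factors of the progenitors themselves. Of its 11 measured members 6 were at least 1.5-fold higher in the fully resistant cells and 1 was lower. The list median was 0.80 above that of all genes on the log2 scale. NEUROD4 had 85.1 CPM against 2.98 in the intermediate resistant cells, 28.6-fold higher (25.5 to 32.2), and 0.0105 in the sensitive ones. NEUROD1 had 111 against 6.35, 17.4-fold higher (16.1 to 18.9), and 4.50 in the sensitive library. Both were therefore low in the other 2 libraries. HES6, which opposes HES1 and favours neuronal differentiation, had 313 against 48.8 CPM, 6.41-fold higher. SOX9 and SOX2, factors of neural stem and progenitor cells, were 2.28-fold and 2.26-fold higher, at 35.1 against 15.4 and 21.6 against 9.55 CPM. The member that went down was INSM2, a zinc finger factor of neuroendocrine cells, at 49.7 against 252 CPM, 5.07-fold lower.

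The adrenergic circuit did not move as a unit. Of 23 measured factors 5 were at least 1.5-fold higher, 9 were lower and 9 were neither, and the median was 0.63 below that of all genes. MEIS2 was 7.75-fold lower, at 44.2 against 342 CPM (125 in the sensitive cells), and its share of cells was 31.2% against 91.1%. GATA3 was 3.92-fold lower at 111 against 435 CPM, GATA2 3.60-fold lower at 85.0 against 306, and HAND1 2.65-fold lower at 131 against 347. PHOX2A, a homeobox factor of noradrenergic neurons, was 1.5-fold lower at 296 against 444 CPM, a ratio at the edge of the call. Among the higher members were DACH1, a transcriptional corepressor (7.22-fold, 66.1 against 9.16 CPM), and LMO4, a LIM domain cofactor (3.23-fold, 319 against 98.9 CPM). HAND2, at 283 against 417, and ISL1, at 102 against 78.8, differed by under 1.5-fold.

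**Figure D2:**
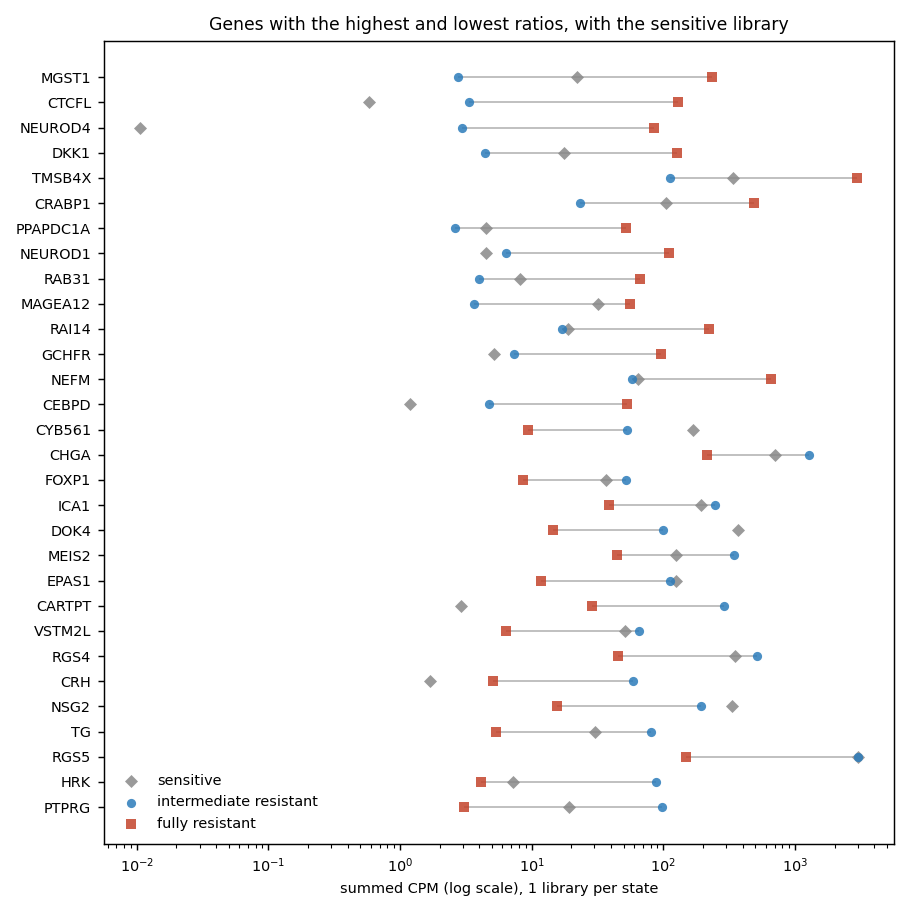
Summed CPM (log scale) of 14 of the highest and the 16 lowest genes by ratio in the sensitive (diamonds), intermediate resistant (circles) and fully resistant library (squares), 1 library per state. In 7 of the 14 higher genes the sensitive level was under 10 CPM, and in 13 of the 16 lower genes it was at least 10 CPM.

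Genes for the storage and release of amines and peptides were lower in the fully resistant cells in several steps of that pathway, and the synthesis enzymes TH and DBH were below 2-fold in CPM but lower by over 20 points in share of cells. SLC18A2, the transporter that loads monoamines into vesicles, had 1.17 CPM against 33.3, 28.5-fold lower (23.8 to 34.4), and 40.2 in the sensitive library. SLC6A2, the noradrenaline transporter of the plasma membrane, was 7.41-fold lower at 4.68 against 34.7 CPM. CYB561, the cytochrome that keeps vesicular ascorbate reduced for dopamine beta-hydroxylase, was 5.66-fold lower at 9.42 against 53.3, with 167 in the sensitive cells. TH, the rate-limiting enzyme of catecholamine synthesis, had 238 against 292 CPM, 1.23-fold lower, and its share of cells was 53.5% against 79.9%. The sensitive library was below both, with TH at 45.7 CPM and in 29.4% of cells. DBH, which makes noradrenaline, had 380 against 609 CPM, 1.60-fold lower, and a share of 74.6% against 95.6%. It too was lower in the sensitive cells, at 153 CPM and a share of 61.9%. DDC, the second enzyme of the chain, was level at 269 against 239. Of the 14 measured genes of the list 4 were at least 1.5-fold lower, DBH among them, and 2 higher, both of them acting on the cofactor tetrahydrobiopterin. These were GCH1, the first enzyme of its synthesis, at 22.0 against 4.38 CPM, and GCHFR, the feedback regulator of GCH1, at 96.0 against 7.35, 13.1-fold higher.

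Every one of the 7 measured neuropeptide genes passed 1.5-fold, 5 lower and 2 higher, with a median 2.05 below that of all genes. CRH (corticotropin-releasing hormone) had 5.09 CPM against 58.6 and 1.68 in the sensitive cells, 11.5-fold lower than in the intermediate resistant cells. CARTPT, the precursor of the CART peptide, had 28.5 against 290 and 2.90, 10.2-fold lower (9.78 to 10.5). For both of these the intermediate resistant library was the high one of the 3. TAC3, the neurokinin B gene, was 4.05-fold lower at 7.41 against 30.03 CPM, and the galanin gene GAL 3.68-fold lower at 209 against 770. SST (somatostatin) had 383 against 682 CPM and 53.3 in the sensitive cells, 1.78-fold lower and so not past 2-fold, but its share of cells was 40.7% against 82.0%. ADCYAP1, which encodes the peptide PACAP, had 22.3 CPM (2368 UMIs) in the fully resistant cells and 1 UMI in the intermediate resistant ones, a ratio of 2285 with a counting interval of 410 to 90297. NMB, the neuromedin B gene, was 2.27-fold higher.

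The vesicle core proteins divided. CHGA, the granin that makes up much of the vesicle core, was 6.00-fold lower (5.92 to 6.09) at 214 CPM against 1286, with 705 in the sensitive cells, and CHGB was 3.04-fold lower at 34.4 against 105. SCG2 (secretogranin II), the carboxypeptidase gene CPE and the protease gene CTSL were 2.41-fold, 2.30-fold and 3.75-fold higher, at 24.2 against 10.0, 113 against 49.0 and 25.4 against 6.77 CPM. Of 12 measured granin and prohormone processing genes 3 were higher and 3 lower at 1.5-fold. The list median lay 0.14 above that of all genes.

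Some of these secretory genes hold the full palindrome TGACGTCA, the cyclic AMP response element read by CREB family proteins, in the 250 bases before the RefSeq gene start. The stretches of 3 genes that were at least 2-fold lower and of SST are shown because they belong to that pathway and carry the motif. They are read 5′ to 3′ on the gene's strand from the RefSeq promoter table of build GRCh38.p14, while the deposited counts used hg19 and no position was converted. TGACGTCA stands in capitals, and so does 1 match to the E-box CAGATG (here as its reverse complement CATCTG) in the CARTPT stretch. They lie at chr14:92922900-92923149 on the + strand (CHGA), chr5:71719025-71719274 on the + strand (CARTPT), chr10:117240864-117241113 on the + strand (SLC18A2) and chr3:187670395-187670644 on the - strand (SST).
CHGA: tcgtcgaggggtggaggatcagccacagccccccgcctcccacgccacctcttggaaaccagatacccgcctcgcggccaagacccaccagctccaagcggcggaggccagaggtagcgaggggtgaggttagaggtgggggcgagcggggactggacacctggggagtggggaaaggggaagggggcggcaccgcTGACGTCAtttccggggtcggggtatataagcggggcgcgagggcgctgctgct
CARTPT: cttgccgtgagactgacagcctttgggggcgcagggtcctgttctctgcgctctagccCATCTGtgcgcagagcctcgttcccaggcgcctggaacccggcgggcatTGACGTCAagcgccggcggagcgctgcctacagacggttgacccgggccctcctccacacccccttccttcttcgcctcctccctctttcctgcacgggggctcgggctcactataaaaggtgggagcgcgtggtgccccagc
SLC18A2: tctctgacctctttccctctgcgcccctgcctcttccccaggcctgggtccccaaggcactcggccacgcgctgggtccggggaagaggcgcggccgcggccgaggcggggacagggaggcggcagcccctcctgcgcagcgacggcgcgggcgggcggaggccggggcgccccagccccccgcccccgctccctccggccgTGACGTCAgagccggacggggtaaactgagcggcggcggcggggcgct
SST: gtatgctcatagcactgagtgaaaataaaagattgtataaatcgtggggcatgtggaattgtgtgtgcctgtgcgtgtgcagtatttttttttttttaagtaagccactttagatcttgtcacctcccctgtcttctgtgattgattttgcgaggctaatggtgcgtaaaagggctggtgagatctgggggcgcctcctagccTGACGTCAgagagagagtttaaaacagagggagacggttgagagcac
On both strands, TGACGTCA was found in 577 of 34961 promoter stretches of the table (1.65%) and in 3.51% of the 4047 compared genes that matched it. It was in 5 of 100 matched genes that were at least 2-fold lower and in 3 of 178 that were at least 2-fold higher (1.69%). The difference between those shares rests on few genes. Of 115 named genes with a stretch 5 held it, and JUND, the only one besides the 4 above, was 1.62-fold higher. The E-boxes CAGATG and CAGCTG, which proneural factors can bind, stood in 10.1% and 12.9% of the matched higher genes, against 7.31% and 11.5% of all matched genes and 8% and 16% of the lower ones. NEUROD4 and HES6 held 1 CAGCTG each, and NEUROD1 held neither E-box. Named genes outside the proneural list also held 1 CAGCTG, among them the higher gene CDKN1A and the lower genes PTPRG and RGS2.

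RGS proteins speed up GTP hydrolysis by G protein alpha subunits and so shorten signalling from their receptors. RGS5 was at 148 CPM in the fully resistant cells, 3041 in the intermediate resistant and 3031 in the sensitive ones, 20.5-fold lower (20.2 to 20.9). After thinning, 38.3% of fully resistant cells had an RGS5 UMI against 99.98%, and free RNA could supply at most 0.912 of the 148 CPM. RGS4 fell from 515 to 45.1 CPM, 11.4-fold (11.1 to 11.8), with 352 in the sensitive cells, and RGS2 was 2.29-fold lower. RGS10, which acts on Gi alpha subunits, was 2.43-fold higher at 118 against 48.5 CPM. Of 6 measured members 3 were lower and 1 higher at 1.5-fold. The list median lay 0.63 below that of all genes, and 0.07 above it when members down to 5 CPM entered.

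In the protein kinase A list, 4 of 9 measured genes were higher and 2 lower at 1.5-fold. PKIB, an inhibitor peptide of the kinase's catalytic subunit, had 360 CPM in the fully resistant, 77.4 in the intermediate resistant and 2.04 in the sensitive library, 4.64-fold higher (4.53 to 4.76) between the first 2. Its level was thus lowest in the sensitive and highest in the fully resistant library, and a link to dose was not tested. PKIG, a second inhibitor gene, was 1.65-fold higher. PDE4D and PDE4B, phosphodiesterases that break down cyclic AMP, were 1.91-fold and 2.10-fold higher, and PDE4B dropped under 2-fold under the alternative scalings. PRKAR2A, a regulatory subunit, was 2.24-fold lower at 32.3 against 72.3 CPM, in a stretch of chromosome 3 where most genes were lower.

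Among receptor kinases and their ligands 7 genes were measured, of which 3 were lower and 2 higher at 1.5-fold. GFRA3, the artemin co-receptor, was 29.2-fold lower (24.6 to 34.9) at 1.30 against 38.0 CPM and 1.43 in the sensitive cells. GFRA1, the GDNF co-receptor, was 2.84-fold higher at 26.3 against 9.26 CPM. IGF2 was 2.27-fold lower at 550 against 1250 and EGFR 2.35-fold lower at 11.3 against 26.5. In the sensitive cells they stood at 456 and 9.67 CPM, so for both the intermediate resistant library was the high one. ALK was under the 20 CPM limit in both libraries and so was not called. Its 133 against 524 UMIs give a level 4.08-fold lower (3.37 to 4.98). Of the ERK output genes only 4 were measured. ETV1 and IER2 were higher, 6.36-fold and 2.21-fold, while CCND1 was level at 318 against 312 CPM. For ETV1, at 21.6 against 3.40 CPM and 17.9 in the sensitive cells, the intermediate resistant library was the low one. That list's median was 0.41 above that of all genes, and changed sign to -0.128 when the totals left out ribosomal protein and mitochondrially encoded genes. MYCN had 446 against 413 CPM, and 1242 in the sensitive cells.

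DKK1, a secreted inhibitor of Wnt signalling, had 126 CPM against 4.42 and 17.7 in the sensitive cells, 28.5-fold higher (25.99 to 31.4). FZD2, a Wnt receptor, was 2.76-fold higher at 20.3 against 7.36. CTNNB1, the beta-catenin gene, was 1.65-fold lower at 45.0 against 74.1, again within the chromosome 3 stretch. In the retinoid list CRABP1, a cytosolic binding protein of retinoic acid, had 488 CPM against 23.4 and 104 in the sensitive cells, 20.9-fold higher (20.1 to 21.8), and CRABP2 was 2.10-fold higher. The retinoic acid receptor RARA was 1.90-fold lower, and of 7 measured genes 2 were higher and 2 lower. Among BMP and TGF-beta genes, ID1, TGFB1 and SMAD1 were at least 2-fold higher. ID1, an inhibitor of helix-loop-helix factors, had 243 against 84.0 CPM and lies in a raised stretch of chromosome 20. TGFB1 had 51.0 against 21.6 CPM, with 64.2 in the sensitive cells, above both resistant libraries. SMAD1 had 24.2 against 12.1 CPM. SMAD1 was under 2-fold under the alternative scalings. BMP7, in the same chromosome 20 stretch, was 1.87-fold lower and ID2 1.62-fold lower. Of the 10 measured genes 4 were higher and 2 lower at 1.5-fold.

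**Figure D3:**
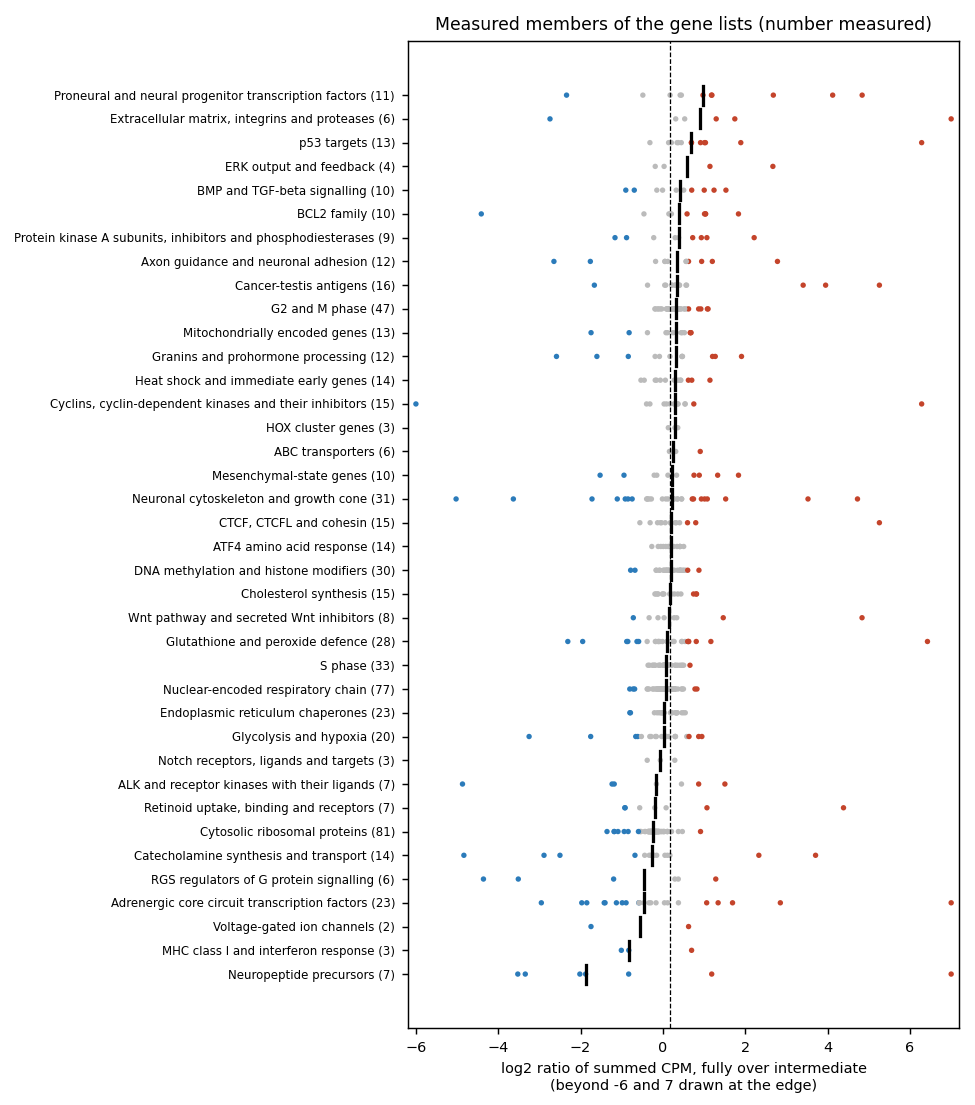
Log2 ratio of summed CPM, fully over intermediate resistant, for each measured member of the 38 gene lists (points) with the list median (black bar) and the median of all 5165 genes (dashed line, 0.17). Red points are at least 1.5-fold higher and blue points at least 1.5-fold lower. The neuropeptide list has the lowest median and the proneural list the highest, and most lists hold members on both sides.

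Cytoskeletal genes of neurons moved in both directions. TMSB4X, the actin-sequestering thymosin beta 4, had 2968 CPM against 112 and 338 in the sensitive cells, 26.4-fold higher (25.96 to 26.9). It was seen in 99.6% of fully resistant and 51.5% of intermediate resistant cells. NEFM, a neurofilament subunit, was 11.5-fold higher at 662 against 57.6, and DCX, the microtubule protein of migrating neurons, 2.87-fold higher. NSG1 and NSG2, endosomal proteins of neurons, were 32.5-fold and 12.4-fold lower, NSG2 at 15.7 CPM against 195 and 331. STMN2, a microtubule regulator of axons, was 3.30-fold lower at 76.9 against 254. Of 31 measured genes 8 were higher and 7 lower at 1.5-fold, and the list median was 0.05 above that of all genes.

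The axon guidance cue SLIT2 was 6.87-fold higher at 32.2 against 4.69 CPM, and NRP2, a semaphorin co-receptor, was 2.30-fold higher. The netrin receptor UNC5B and the adhesion gene CNTN1 were 3.40-fold and 6.27-fold lower. Matrix genes were few. COL2A1, the cartilage collagen, had 32.7 CPM against 0.176, 186-fold higher (118 to 314), TIMP2 was 3.35-fold and VCAN 2.45-fold higher, and the protease gene ADAMTS9 was 6.70-fold lower. The mesenchymal list, whose genes mark the alternative neuroblastoma state, had 4 of 10 measured members higher and 2 lower. SPARC (2.51-fold) and ANXA2 (3.57-fold) were higher and LGALS1 2.88-fold lower. VIM, the vimentin gene, was at 4.20 against 3.81 CPM, below the limit for a call, with 62.6 in the sensitive cells.

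CTCFL, the germ-line paralog of the chromatin insulator protein CTCF, had 129 CPM (95% interval 127 to 131) in the fully resistant, 3.37 (3.02 to 3.74) in the intermediate resistant and 0.578 in the sensitive library. It had a UMI in 65.1% of fully resistant and 2.93% of intermediate resistant cells, and free RNA could supply at most 0.697 and 0.0223 CPM. The intermediate resistant level was thus low but above that ceiling. CTCF was level at 45.4 against 47.4 CPM. Of 15 measured genes of the CTCF and cohesin list 3 were at least 1.5-fold higher and none was lower, beside 12.4% and 6.35% of all genes. Besides CTCFL these were the cohesin loader NIPBL (1.74-fold) and the cohesin protector SGOL1 (1.51-fold, interval 1.46 to 1.57). NIPBL lies in a raised stretch of chromosome 5 with a median ratio of 1.75. Without genes in shifted chromosome stretches, 1 of 12 measured members was higher. Among 16 measured cancer-testis genes MAGEA12 (15.5-fold) and CSAG1 (10.6-fold) were also higher and GAGE2A was 3.17-fold lower. These last 3 have near-identical copies between which 3' reads can be split, so their values are uncertain. In the sensitive cells MAGEA12 and CSAG1 stood at 31.9 and 97.9 CPM, so the intermediate resistant library was the low one.

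The largest differences in growth control were in 2 cyclin-dependent kinase inhibitor genes, in opposite directions. CDKN1A (p21), an inhibitor of cyclin-dependent kinases and a p53 target, had 36.5 CPM against 0.469 and 14.1 in the sensitive cells, 77.9-fold higher (58.6 to 106). CDKN2A, which encodes the inhibitor p16 and the protein ARF, had 5 UMIs in the fully resistant and 3205 in the intermediate resistant library (0.0471 against 31.3 CPM, and 7.88 in the sensitive library), 664-fold lower (284 to 2047). No thinned fully resistant cell had a CDKN2A UMI, and 25.2% of intermediate resistant cells did. Genes near it on chromosome 9 were looked up after this was seen. MTAP had 6 against 992 UMIs (0.0565 against 9.68 CPM, 10.6 in the sensitive cells), 171-fold lower (78.4 to 468), and CDKN2B 0 against 13 UMIs, while KLHL9 was 1.57-fold lower.

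Of 13 measured p53 targets 7 were at least 1.5-fold higher and none lower, with a median 0.52 above that of all genes. Besides CDKN1A they included the growth arrest gene GADD45A (3.71-fold, 99.3 against 26.8 CPM), the apoptosis genes BBC3 (2.05-fold) and BAX (2.01-fold), and RPS27L (1.88-fold). In the sensitive cells BAX and RPS27L stood at 266 and 344 CPM, above the 224 of BAX and near the 360 of RPS27L in the fully resistant library. Of the BCL2 family 5 of 10 measured genes were higher and 1 lower. HRK, a BH3-only activator of apoptosis in neurons, was the one that was lower, at 4.12 CPM against 87.6 and 7.19 in the sensitive cells, 21.3-fold (19.3 to 23.5). BCL2L12 was 3.57-fold higher, and BCL2L1, which encodes BCL-XL, 2.05-fold higher at 38.3 against 18.7. BAX, BBC3 and BCL2L1 were under 2-fold under the alternative scalings, and without genes in the shifted chromosome stretches described below the family's median lay 0.03 above that of all genes, against 0.22 with them.

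Replication genes differed little. Of 33 measured S phase genes 1 was at least 1.5-fold higher and none lower, and of 47 measured G2 and M phase genes 5 were higher and none lower. Among all genes 12.4% were higher and 6.35% lower at that limit. UBE2C (446 against 211 CPM), AURKA (167 against 88.5) and TPX2 (217 against 119), all mitotic regulators, are 3 of those 5 and lie in the raised stretch of chromosome 20. UBE2C and HMMR, the highest of the 5, were both under 2-fold under the alternative scalings.

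Antioxidant genes were split, with 6 of 28 higher and 6 lower at 1.5-fold. After MGST1, the greatest rise was that of GSS, the last enzyme of glutathione synthesis (2.24-fold, 36.9 against 16.5 CPM, in the chromosome 20 stretch). TXNIP, the thioredoxin inhibitor, was 4.96-fold lower and GSTP1, the cytosolic glutathione transferase, 3.86-fold lower at 111 CPM against 429 and 956 in the sensitive cells. In the glycolysis and hypoxia list EPAS1 (HIF-2 alpha) was 9.52-fold lower at 11.7 against 112 CPM, and the glucose transporter gene SLC2A1 3.38-fold lower. Of the nuclear respiratory chain genes 72 of 77 were within 1.5-fold. Cytosolic ribosomal protein genes lay 0.40 below all genes by their median. Of the 81 measured, 7 were at least 1.5-fold lower and 1 higher, and 4 of the 7 (RPL29, RPSA, RPS6 and RPL14) lie in the lowered stretches. RPL17 overlaps other transcripts and many of these genes have processed copies, so single members are uncertain. The same holds for MT-ATP8, 3.36-fold lower, which overlaps MT-ATP6. B2M (beta-2-microglobulin, part of every MHC class I complex) had 82.9 CPM against 147 and 281 in the sensitive cells, a 1.78-fold lower level.

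Differences ran in blocks along some chromosomes. In gene order, 7 runs of at least 20 measured genes had a running median over 21 genes at least 0.4 away from that of all genes, and these were found after the values were seen. The longest, on chromosome 20 from SNRPB2 onward, held 125 measured genes with a median ratio of 1.65, and 117 of them were above the all-gene median. On chromosome 3 from EXOG to ADAMTS9, 73 genes were 1.77-fold lower by their median, and on chromosome 9 from KIAA0020 onward 47 genes were 1.64-fold lower. On chromosome 5 from CCDC127 to NUP155 all 30 genes were above the all-gene median, at 1.75-fold. The intermediate resistant library differed little from the sensitive one in these 4 runs, by medians of -0.10 to -0.07 on the log2 scale. The other 3 runs, of 21 to 31 genes on chromosomes 1 and 16, had medians of -0.42 to -0.24. Together the runs held 349 measured genes (6.76%), with 11.97% of the genes called higher and 21.9% of those called lower. Runs were picked by these same ratios, so these shares and the counts above the all-gene median follow in part from the choice. CTCFL, RAI14 (13.1-fold higher, on chromosome 5), PTPRG (32.2-fold lower, on chromosome 3) and CDKN2A lie inside runs, with ratios far beyond those of their neighbours. DNA copy number was not measured.

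**Figure D4:**
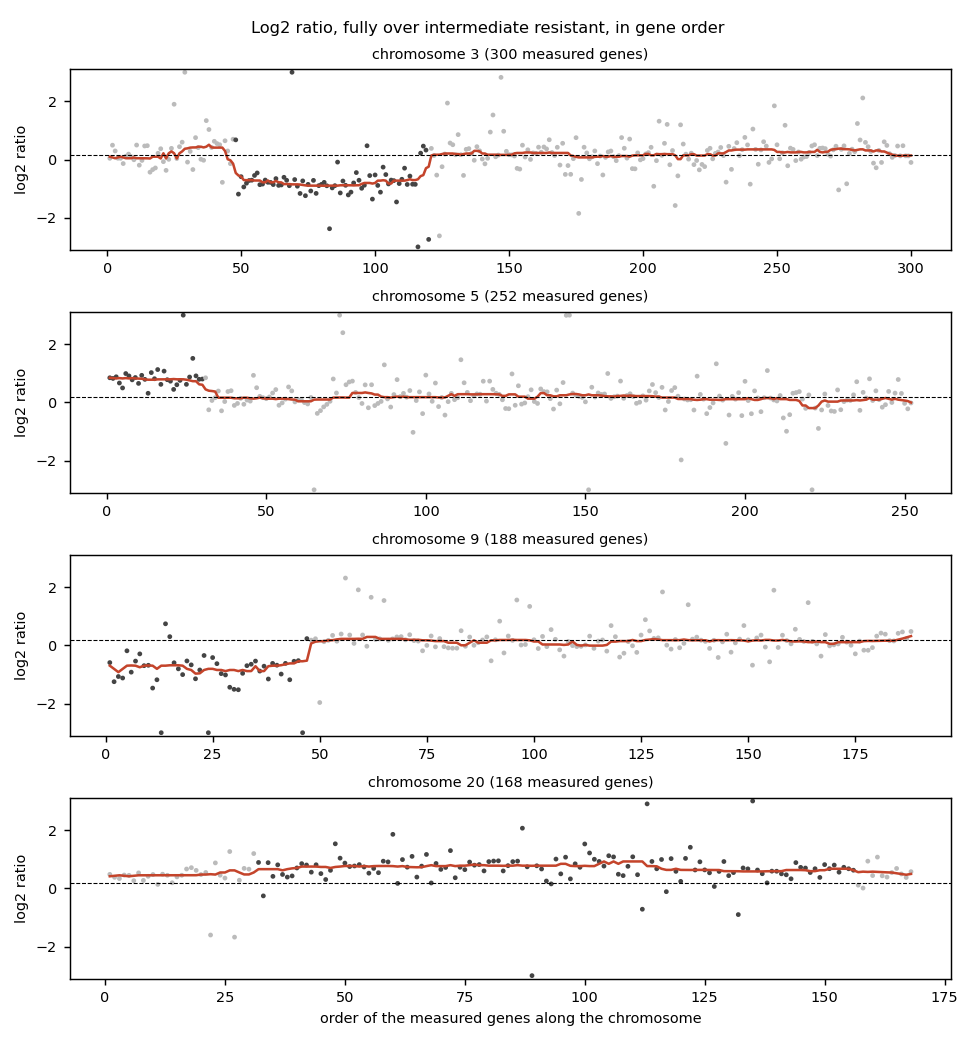
Log2 ratio of summed CPM, fully over intermediate resistant, of the measured genes of chromosomes 3, 5, 9 and 20 in their order, clipped at -3 and 3, with the running median over 21 genes (red line) and the median of all genes (dashed line). Dark points are genes in a run. The median ratio was lowered in 73 genes of chromosome 3 and 47 of chromosome 9, and raised in 30 of chromosome 5 and 125 of chromosome 20.

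The chromosome 20 shift was present across cells. With called and ribosomal protein genes left out, the run's 104 remaining genes took a median of 1.44% of a fully resistant cell's UMIs (5th to 95th percentile 1.06% to 1.81%), against 0.979% (0.726% to 1.26%) in intermediate resistant and 1.02% in sensitive cells. For the chromosome 3 run the medians were 0.295%, 0.463% and 0.495% over 57 genes in the same order of libraries. The ranges of the libraries overlapped in part.

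Genes differed in how their UMIs were spread over the cells of the higher library. If a gene's UMIs fell evenly over thinned cells, the share with at least 1 would be 100 x (1 - exp(-mean)). The observed share was within 5 points of that for 57 of the 90 genes of the naming rule given here that were at least 2-fold apart, 47 higher and 43 lower. This measure says little for genes seen in nearly every cell, such as RPS6 at 100% against 100%, or in few. ADCYAP1, at 18.1% against 19.9%, is within 5 points although 63.6% of its UMIs lay in the 10% of cells that held most. CTCFL was seen in 65.1% of cells where an even spread gives 70.1%. It was over 12 points short for 14 genes. In the fully resistant cells DKK1 was seen in 43.3% where 71.8% would have it, NEUROD1 in 38.4% against 65.1% and NEFM in 71.3% against 99.8%. In the intermediate resistant cells CARTPT was seen in 43.6% against 94.4%, and CRH in 13.2% against 44.8%, with 94.7% of the CRH UMIs in the 10% of cells that held most. A cell with 0 UMIs at this depth may still express a gene, so these are shares of cells with a UMI.

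**Figure D5:**
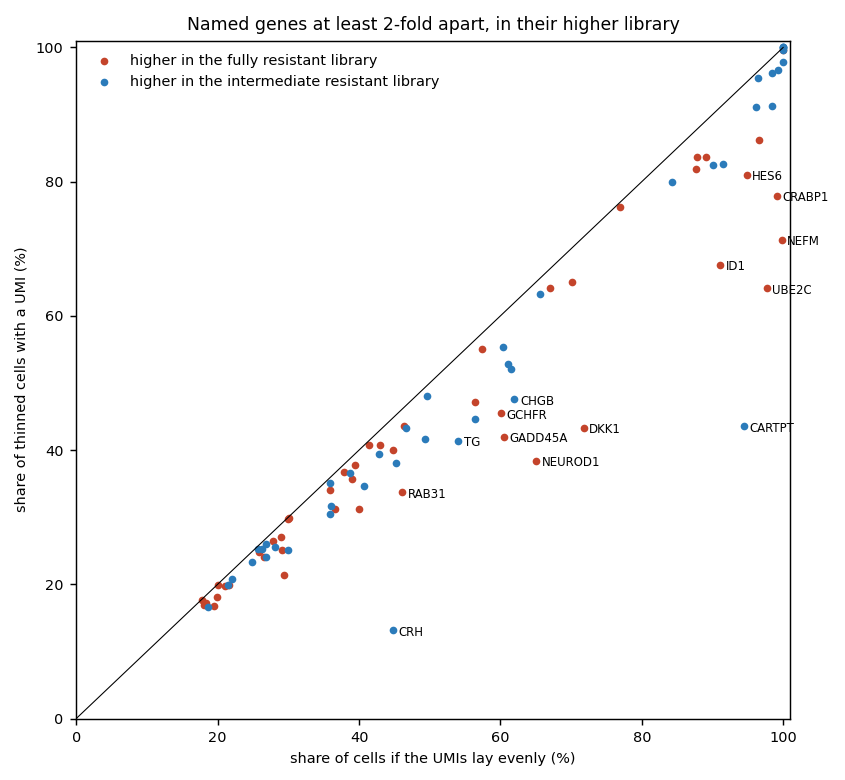
Share of thinned cells with at least 1 UMI (y axis) against the share if the UMIs lay evenly over cells (x axis) for 90 genes of the naming rule at least 2-fold apart, in the library where each was higher, with genes over 12 points below the line named. Of the 90 points 57 lie within 5 points of the line, and CARTPT, CRH, DKK1 and NEUROD1 lie far below it.

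MGST1, CTCFL, NEUROD4 and DKK1, which are among the highest genes, occurred together in the same cells about as often as their shares give. For the 6 pairs among them, the share of fully resistant cells with both was 0.901 to 1.03 times the product of the 2 shares. MGST1 was seen in 83.6% of these cells, which limits how far its pairs can exceed the product. Pairs with other high genes are not reported here. MGST1 and CTCFL, for example, were together in 54.7% of cells where the product gives 54.4%. Among genes of uneven spread, looked at after that spread was seen, NEUROD1 and DKK1 were together in 11.7% of fully resistant cells where the product gives 16.6%. NEUROD1 and NEUROD4 were together in 22.2% against 18.1%. In the intermediate resistant cells CARTPT and CRH were together in 8.29% against 5.74%. In the fully resistant cells, where RGS4 was detected in 22.5% and RGS5 in 38.3%, the pair was together in 12.5% against 8.61%.

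Most markers of other cell types were low, with exceptions. A level of at least 5 CPM in either resistant library was reached by 3 of 8 fibroblast and 3 of 8 pericyte and smooth muscle markers. In the glial, endothelial and epithelial lists 1 marker each reached it, and no white or red blood cell marker did. Of the Schwann cell and glial markers, SOX10 had 2 UMIs in the fully and 0 in the intermediate resistant library, CDH19 none in either, and S100B 6 and 21. Of 7 endothelial markers in the table only CLDN5 reached 5 CPM, at 36.1 against 0.830 CPM, with CDH5 at 0 and 1 UMI. THY1 was the highest fibroblast marker at 14.3 against 23.3 CPM, and KRT19 the epithelial one above 5 CPM, at 0.518 against 11.4. Summed Schwann cell and glial markers had 91.6 CPM in the fully and 6.96 in the intermediate resistant library, and endothelial markers 37.8 and 1.91. In the fully resistant library the glial sum was led by its 1 marker above 5 CPM and the endothelial sum by CLDN5. Summed fibroblast markers had 22.5 and 32.7 CPM, epithelial 1.30 and 13.2, white blood cell 0.772 and 0.918, and red blood cell 1.09 and 2.997 CPM. CDH1, KRT5, CD3E, MS4A1 and ALAS2 had no UMI in either library. The pericyte list, at 177 and 3099 CPM, was led by RGS5. KCNJ8, at 14.3 against 44.6 CPM, and PDGFRB, at 10.2 against 11.5, were its other markers above 5 CPM.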

How the data were processed

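Single-cell RNA was counted in 3 libraries of Kelly cells, grouped by the drug response in the labels. The deposited files hold raw UMI counts per gene and barcode, not normalized, for 32738 gene rows and 737280 barcodes per library, and 0 per-sample columns went unused. Per the submitters' processing notes, bcl2fastq and Cell Ranger were used on hg19, with versions not given in the sources used here.

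From these counts, cells were kept at 5000 UMIs, 500 genes and 20% mitochondrial UMIs, doublets were kept, and UMIs were summed over cells and divided by the library total. With 1 library per state, calls are by size only, at a CPM ratio of 2 (1.5 for list members) or a difference of 20 points in the share of cells after thinning to 9500 UMIs. Ratios carry exact conditional Poisson and shares exact Clopper-Pearson 95% intervals. The free RNA ceiling is the CPM a gene would have if each cell held 100 UMIs of the profile of barcodes with few UMIs. A library with 0 UMIs of a gene was set to 3 UMIs.

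Named genes were the 16 highest and 16 lowest ratios with at least 50 CPM in the higher library, leaving out mitochondrially encoded, ribosomal protein and clone-named genes. Added to these were the 6 greatest rises and falls in share, up to 4 members of each of 38 gene lists by absolute log2 ratio, and 12 fixed genes. A few genes and markers within these rules were left out of the text. Any other gene was chosen after its values were seen. The members and lists were chosen with earlier results of these data known. Chromosome order came from GENCODE, used only for names and order, which matched 5154 of 5165 genes. The ratio and interval code was tested on simulated data. Alternatives were other scalings, cell limits, CPM limits, thinning depths, removal of the top 5% of cells and of free RNA, with another seed. Python 3.11.15, NumPy 2.4.6, SciPy 1.17.1, pandas 2.3.3 and edgeR 4.0.16 (TMM only) were used.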

Additional observations from a re-analysis of the deposited data

How the results depend on the processing

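With 1 library per state nothing here measures variation between cultures, and depth limits only the genes near 20 CPM and those with few UMIs in the lower library. The 90 genes of the naming rule given here that were at least 2-fold apart were recomputed in 810 values, and 0 changed direction. In 27 of those values 8 genes were under 2-fold, namely HMMR, UBE2C, CRABP2, PDE4B, BCL2L1, BBC3, BAX and SMAD1. The higher and lower genes numbered 549 and 376 at a limit of 5 CPM (9614 genes) and 92 and 57 at 50 CPM (2586 genes). Totals that left out ribosomal protein and mitochondrially encoded genes gave 281 lower genes (274 higher) of 6999. The median log2 ratio of all genes was 0.0341 under TMM, 0.0596 under median-of-ratios scaling, 0.0421 without those genes in the totals and 0.149 at 5 CPM. Genes with a higher share of cells numbered 55 after thinning to 5000 UMIs, 188 with no thinning and 38 at a limit of 30 points, and those with a lower share 40 after thinning to 5000 UMIs and 29 at 30 points. Relative to all genes, 17 of the 38 list medians stood over 0.2 away, and 4 values of 3 lists changed sign. These were -0.128 for ERK output without those genes in the totals, 0.0673 for the RGS list at 5 CPM, and 0.0799 and 0.0863 for the Notch list under those settings in turn. Each of these settings changes which members enter, and the cause was not tested. The alternative without genes in shifted chromosome runs was chosen after seeing the data. No paired analysis was possible because each state has 1 library.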
